A study of Mus musculus with 8 samples.

Results

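Genes of store-operated calcium entry and of calcium release from the endoplasmic reticulum were followed in whole cerebellum of bigenic and control mice. They are the reticulum sensors Stim1 and Stim2, the plasma membrane channels Orai1, Orai2 and Orai3, the inositol trisphosphate (IP3) receptors Itpr1, Itpr2 and Itpr3, and the ryanodine receptors Ryr1 and Ryr2. The genes were taken by their symbol, 10 of the 24060 rows of the deposited count table. All 10 stood among the 15186 genes with enough reads to be tested.

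RNA sequencing of bulk cerebellum covered 8 mice, a separate animal for each library. The 4 bigenic mice carried CalExflox, which yields a plasma membrane calcium pump once Cre has recombined it. They also carried Aldh1l1-Cre/ERT2, a Cre that tamoxifen switches on in astrocytes. The 4 control mice carried CalExflox without Cre. Mice of both genotypes were given one intraperitoneal dose of tamoxifen at 75 mg/kg (25 mg/ml in corn oil), and the cerebellum was taken 5 days later. Since only the bigenic mice carry Cre, effects of the pump and of Cre itself cannot be told apart. Sex and age are not given in the labels, and striatal tissue was not analysed here.

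Calcium held in the endoplasmic reticulum leaves it through IP3 receptors and ryanodine receptors. When the store empties, STIM proteins in the reticulum membrane sense the drop and open Orai channels in the plasma membrane, through which calcium enters and the store is refilled. In the cerebellum Itpr1 is the IP3 receptor of Purkinje cells, and Stim1 and Ryr1 are also known from these neurons. Itpr2 is known as the main IP3 receptor of astrocytes, which include the Bergmann glia.

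Counted reads ranged from 35208460 to 38293012 per library. Control libraries 2 and 3, and less so control 1, held choroid plexus transcripts: the choroid plexus gene Ttr stood at 2.25 to 4.62 CPM (read counts scaled to library size with TMM factors) in bigenic libraries, against 300.2, 2360, 2961 and 2.76 CPM in control libraries 1 to 4. The 12 choroid plexus markers summed to 164 to 232 CPM in bigenic libraries and 295 to 4883 CPM in controls. The 15 markers of astrocytes and Bergmann glia summed to 11183 to 12649 CPM in bigenic libraries and 9760 to 10419 CPM in controls, with 8 called higher and 2 lower. Aldh1l1, whose promoter drives the Cre and which is itself an astrocyte gene, averaged 141 ± 7.71 CPM in bigenic libraries and 101 ± 2.64 CPM in controls (SD, n = 4 each), with an adjusted p of 0.000257 in edgeR's quasi-likelihood test. The 14 Purkinje cell markers and the 11 granule cell markers were all detected, and the summed levels overlapped between the groups (10138 to 12865 CPM and 6975 to 9218 CPM over all 8 libraries). In bulk tissue, fewer cells of a type and less RNA per cell cannot be told apart.

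Of the 10 genes, 5 were higher in bigenic cerebellum (Stim1, Stim2, Orai2, Itpr2 and Itpr3), 1 was lower (Orai3) and 4 did not pass the threshold (Orai1, Itpr1, Ryr1 and Ryr2). The threshold was an adjusted p under 0.05 in edgeR's quasi-likelihood test, with Benjamini-Hochberg adjustment over all 15186 genes. By the same rule 44.3% of all genes tested were called, 21.4% higher and 22.9% lower, and the 6 calls among the 10 genes are read against that share. That split was 3249 higher and 3485 lower genes with TMM scaling, and 2423 higher and 4373 lower with library size alone, where 3 of the 10 genes were higher and 2 lower. The median log2 fold change of the 10 genes was 0.24, against -0.004 for all genes tested. The groups did not overlap for 6 of the 10 genes, 4 with all bigenic libraries above and 2 with all below, where 40.7% of all genes tested showed no overlap (19.4% with bigenic above and 21.4% below). Stim1, Orai2, Orai3 and Itpr3 passed the threshold under all 18 alternatives, among them the fit without control libraries 2 and 3 and the fit with Ttr as a covariate. Without control libraries 2 and 3 the log2 fold change was 0.70 for Stim1, 0.39 for Orai2, 0.67 for Itpr3 and -0.65 for Orai3. In that fit 3 of the 10 genes were higher and 1 lower, where 21.9% of all genes tested were called, 10.4% higher and 11.4% lower. With the Ttr covariate again 3 were higher and 1 lower, where 8.36% of all genes tested were higher and 11% lower. Only control 4 had Ttr as low as the bigenic libraries, so that fit leans on this library to separate group from Ttr.

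**Figure D1:**
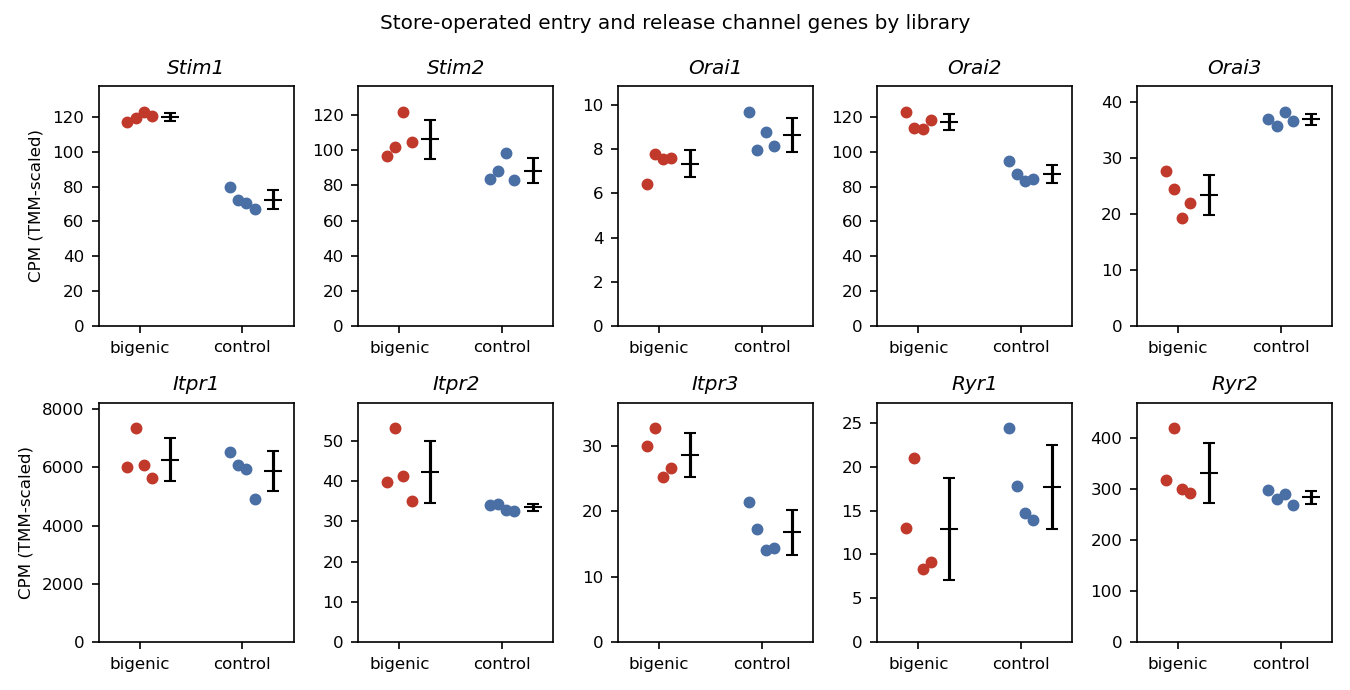
Level of each of the 10 genes in every library, in CPM with TMM-scaled library sizes, on axes that start at 0. Points are single mice, bigenic left and control right, and the bar beside them is the mean with its SD (n = 4 per group); for Stim1 the bigenic points lie between 117 and 123 CPM, above all control points.

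The promoters of Stim1, Orai2, Itpr3 and Orai3 are shown because these 4 genes held their call under every alternative. Each sequence is the 250 bases before the RefSeq transcription start (build GRCm38.p6), 5′ to 3′ on the gene's strand, and 9 of the 10 genes matched the RefSeq table. Capitals mark the GC box GGGCGG (or its reverse complement CCGCCC) and the E-box CACGTG, which reads the same on both strands.
Stim1: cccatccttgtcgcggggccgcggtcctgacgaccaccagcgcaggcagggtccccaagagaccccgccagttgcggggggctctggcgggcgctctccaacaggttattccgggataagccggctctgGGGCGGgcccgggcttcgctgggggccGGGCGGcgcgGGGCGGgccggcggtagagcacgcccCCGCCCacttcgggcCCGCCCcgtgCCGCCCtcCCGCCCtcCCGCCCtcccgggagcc
Orai2: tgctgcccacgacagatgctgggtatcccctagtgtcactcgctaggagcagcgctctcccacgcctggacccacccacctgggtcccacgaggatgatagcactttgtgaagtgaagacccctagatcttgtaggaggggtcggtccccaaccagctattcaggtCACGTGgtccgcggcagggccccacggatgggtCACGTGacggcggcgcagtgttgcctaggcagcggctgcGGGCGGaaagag
Itpr3: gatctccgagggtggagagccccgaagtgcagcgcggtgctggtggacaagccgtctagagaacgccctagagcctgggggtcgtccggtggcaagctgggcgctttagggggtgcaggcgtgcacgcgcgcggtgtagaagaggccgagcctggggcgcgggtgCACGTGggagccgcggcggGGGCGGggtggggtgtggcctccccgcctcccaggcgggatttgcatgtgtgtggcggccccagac
Orai3: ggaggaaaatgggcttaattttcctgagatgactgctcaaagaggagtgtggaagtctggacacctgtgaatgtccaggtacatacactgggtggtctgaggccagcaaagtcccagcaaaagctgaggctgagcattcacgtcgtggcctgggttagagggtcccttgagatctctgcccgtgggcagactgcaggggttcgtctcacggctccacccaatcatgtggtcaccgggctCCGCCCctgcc
The Stim1 window lies at chr7:102267569-102267818 on the plus strand, the Orai2 window at chr5:136170657-136170906 on the minus strand, the Itpr3 window at chr17:27057054-27057303 on the plus strand and the Orai3 window at chr7:127769565-127769814 on the plus strand. The Stim1 promoter was the richest in G and C of the 9, at 78.4% with 31 CpG dinucleotides and 8 GC boxes. The Orai2 promoter held 63.6% G and C with 2 E-boxes, at 84 and 51 bases before the start, and 1 GC box. The Itpr3 promoter held 72.0% G and C with 1 E-box, at 85 bases before the start, and 1 GC box. The Orai3 promoter, of the one gene called lower, held 57.2% G and C, 7 CpG dinucleotides, 1 GC box and no E-box. Among 32851 promoter windows of the same length the median was 52.4% G and C with 6 CpG dinucleotides, 32.7% held a GC box and 6.02% held an E-box on either strand. No other promoter of the 9 held an E-box. The NFAT core GGAAA, not marked above, was found at 2 places in the Orai3 promoter and 1 in the Orai2 promoter. It was in no other of the 9, and 55.6% of all promoter windows held it. A TATA box (TATAAA) and the glucocorticoid response element were also looked for and were in none of the 9. These letter matches describe the windows and say nothing of which factors bind there.

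Both reticulum sensors were higher in bigenic cerebellum, Stim1 more than Stim2. Stim1, the sensor that responds once the store has emptied, stood at 117, 119, 123 and 121 CPM in bigenic libraries 1 to 4, against 80.0, 72.2, 70.4 and 67.1 CPM in control libraries 1 to 4. All 4 bigenic libraries lay above the highest control, and they spread less than the controls did. The log2 fold change was 0.73 ± 0.07 (SE; 95% interval 0.57 to 0.88; adjusted p = 3.34e-05), a rise of 65.6%, and 15.4% of all genes tested changed by more. Stim1 lies on chromosome 7 at 102267806 to 102437319, plus strand (GRCm38).

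Stim2, which reacts to smaller drops in store calcium and so sets the resting level, stood at 96.7, 102, 122 and 105 CPM in bigenic libraries, against 83.8, 88.5, 98.3 and 83.3 CPM in control libraries. The groups overlapped, since the lowest bigenic library lay below control 3. Its log2 fold change was 0.27 ± 0.09 (SE; 95% interval 0.07 to 0.46; adjusted p = 0.0293). Stim2 held its call under 6 of 18 alternatives; without control libraries 2 and 3 the adjusted p was 0.0612, and with Ttr as a covariate 0.0881. The call was also lost when bigenic 3, bigenic 4, control 1, control 2 or control 4 was left out singly, with adjusted p between 0.0601 and 0.0828.

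The 3 Orai channels did not move together. Orai2, a channel subunit abundant in brain, stood at 123, 114, 113 and 118 CPM in bigenic libraries, against 94.5, 87.4, 83.0 and 84.1 CPM in control libraries. All bigenic libraries lay above all controls, with a log2 fold change of 0.42 ± 0.07 (SE; 95% interval 0.27 to 0.57; adjusted p = 0.000655). Orai3, a subunit known from mammals that also takes part in channels opened without store depletion, stood at 27.7, 24.5, 19.3 and 22.1 CPM in bigenic libraries, against 37.0, 35.8, 38.3 and 36.6 CPM in control libraries. Every bigenic library lay below every control, and the bigenic values were spread more widely. The log2 fold change of Orai3 was -0.66 ± 0.11 (SE; 95% interval -0.89 to -0.42; adjusted p = 0.000583), a fall of 36.6%.

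Orai1, the channel subunit best known from immune cells, was the lowest of the 3 per length, at 3.80 FPKM in bigenic and 4.76 FPKM in control libraries on average. It stood at 6.42, 7.76, 7.57 and 7.59 CPM in bigenic libraries, against 9.70, 7.97, 8.79 and 8.14 CPM in control libraries. All bigenic libraries lay below all controls, although bigenic 2 was close to control 2. With a log2 fold change of -0.24 ± 0.12 (SE; 95% interval -0.49 to 0.02; adjusted p = 0.118) it did not pass the threshold. It passed under 4 of 18 alternatives, the 3 fits on FPKM and the one with library size alone. The 10 microglia and macrophage markers also stood lower, at 153 to 186 CPM summed in bigenic and 202 to 234 CPM in control libraries with 5 called lower and 0 higher, and their part in the Orai1 and Orai3 values was not tested.

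**Figure D2:**
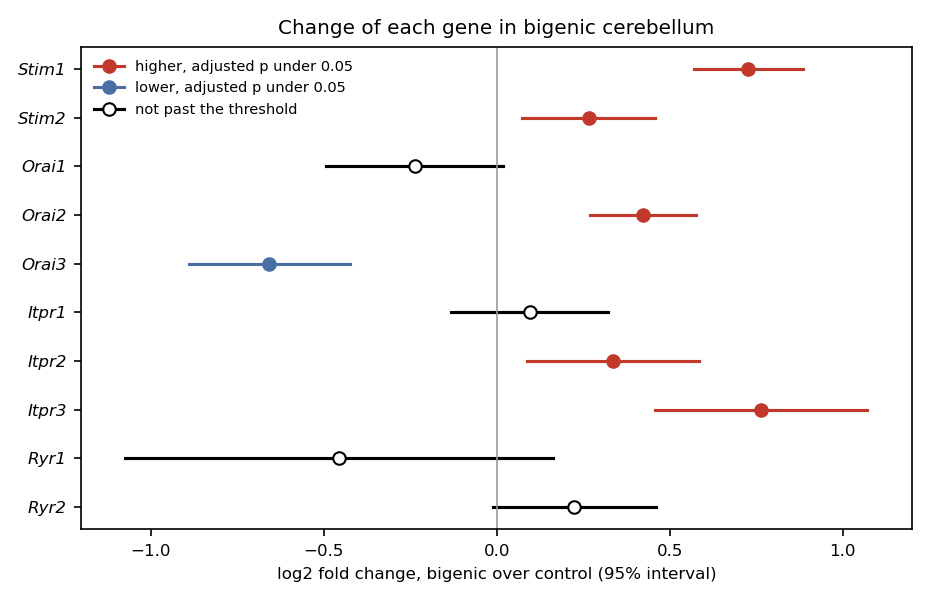
Log2 fold change of each gene, bigenic over control, with its 95% interval from edgeR's fit to 4 bigenic and 4 control libraries. Filled points passed an adjusted p of 0.05 and open points did not; Stim1 (0.73) and Itpr3 (0.76) lie farthest to the right and Orai3 (-0.66) farthest to the left of the genes that passed.

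Among the IP3 receptors the minor forms Itpr2 and Itpr3 were higher in bigenic cerebellum, and the dominant Itpr1 did not pass the threshold. Itpr1, the Purkinje cell receptor, stood at 6006, 7332, 6065 and 5635 CPM in bigenic libraries, against 6528, 6089.6, 5929.6 and 4894 CPM in control libraries. The groups overlapped widely, with bigenic 2 the highest and control 4 the lowest. Its log2 fold change was 0.10 ± 0.10 (SE; 95% interval -0.13 to 0.32; adjusted p = 0.479). The 14 Purkinje cell markers, summed, were 1.08 times as high in bigenic as in control libraries, with 2 called higher and 1 lower.

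Itpr3, the IP3 receptor of many epithelia, stood at 29.9, 32.6, 25.2 and 26.5 CPM in bigenic libraries, against 21.5, 17.4, 14.1 and 14.4 CPM in control libraries. All bigenic libraries lay above all controls, with the lowest bigenic library well above control 1. Its log2 fold change of 0.76 ± 0.14 (SE; 95% interval 0.46 to 1.07; adjusted p = 0.00125), a rise of 69.9%, had the widest interval of the 4 genes that passed under every alternative. Without control libraries 2 and 3, which held most of the choroid plexus transcripts, it was 0.67 with an adjusted p of 0.0275.

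Itpr2, the receptor of astrocytes, stood at 39.7, 53.1, 41.2 and 35.1 CPM in bigenic libraries, against 34.0, 34.4, 32.9 and 32.6 CPM in control libraries. All bigenic libraries lay above all controls, but bigenic 4 only just, and bigenic 2 stood far above the rest. The log2 fold change was 0.34 ± 0.11 (SE; 95% interval 0.09 to 0.59; adjusted p = 0.0309). It held under 7 of 18 alternatives; without control libraries 2 and 3 the adjusted p was 0.150, and without any 1 of the 4 controls it lay between 0.0526 and 0.0720. The astrocyte and Bergmann glia markers, summed, were 1.15 times as high in bigenic as in control libraries, with 8 called higher and 2 lower. Aldoc was the largest part of that sum, at 3897 to 4511 CPM in bigenic and 3206 to 3739 CPM in control libraries. The part of these markers in the Itpr2 value was not tested.

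Neither ryanodine receptor passed the threshold. Ryr2, the form widespread in brain, stood at 318, 420, 299.6 and 292 CPM in bigenic libraries, against 298, 281, 290.4 and 268 CPM in control libraries. Bigenic 2 stood far above the others and bigenic 4 fell below control 1, so the groups overlapped. Its log2 fold change was 0.22 ± 0.11 (SE; 95% interval -0.01 to 0.46; adjusted p = 0.112). Ryr1, the skeletal muscle form also known from Purkinje cells, stood at 13.0, 21.0, 8.35 and 9.12 CPM in bigenic libraries, against 24.4, 17.8, 14.7 and 13.9 CPM in control libraries. Bigenic libraries 1, 3 and 4 lay below every control, and bigenic 2 lay above 3 of the 4 controls. Its log2 fold change was -0.46 ± 0.28 (SE; 95% interval -1.07 to 0.16; adjusted p = 0.210), the widest interval of the 10 genes. The 7 skeletal muscle markers summed to 3.38 to 4.88 CPM in bigenic libraries and 3.03 to 4.08 CPM in controls.

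Bigenic library 2 had the highest value of its group in 6 of the 10 genes, namely Orai1, Itpr1, Itpr2, Itpr3, Ryr1 and Ryr2. For Ryr1 it lay 0.80 log2 units above the bigenic mean, for Ryr2 0.35 and for Itpr2 0.34, whereas for Stim1 it lay 0.01 below. Among the controls, library 1 had the highest value in 7 of the 10 genes. All IP3 and ryanodine receptor genes have long transcripts, 8990 to 16813 bases in the lengths behind the deposited FPKM. Of the 719 tested genes with a length of at least 8000 bases, a limit chosen after the values were seen, 84.4% were higher in bigenic 2 than in the other 3 bigenic libraries, with a median difference of 0.29 on the log2 scale. Over all genes tested that share was 52.0% and the median difference 0.02. Bigenic over control, the median log2 fold change of these 719 genes was 0.08 with all libraries and -0.02 without bigenic 2. Over all genes tested it was -0.004 and -0.01. The part of transcript length in the receptor values was not tested.

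Without bigenic 2 the calls of Stim1, Stim2, Orai2, Orai3, Itpr2 and Itpr3 stood, and Ryr1 was called lower, with a log2 fold change of -0.80 and an adjusted p of 0.0135. Leaving out control 1, the highest control, moved Ryr1 the other way, to -0.26 with an adjusted p of 0.470, and without bigenic 3 or bigenic 4 it was -0.30 or -0.33. Itpr2 had a log2 fold change of 0.21 with an adjusted p of 0.0488 without bigenic 2. For Itpr1 the value without that library was 0.01 and for Ryr2 0.09, both not called.

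**Figure D3:**
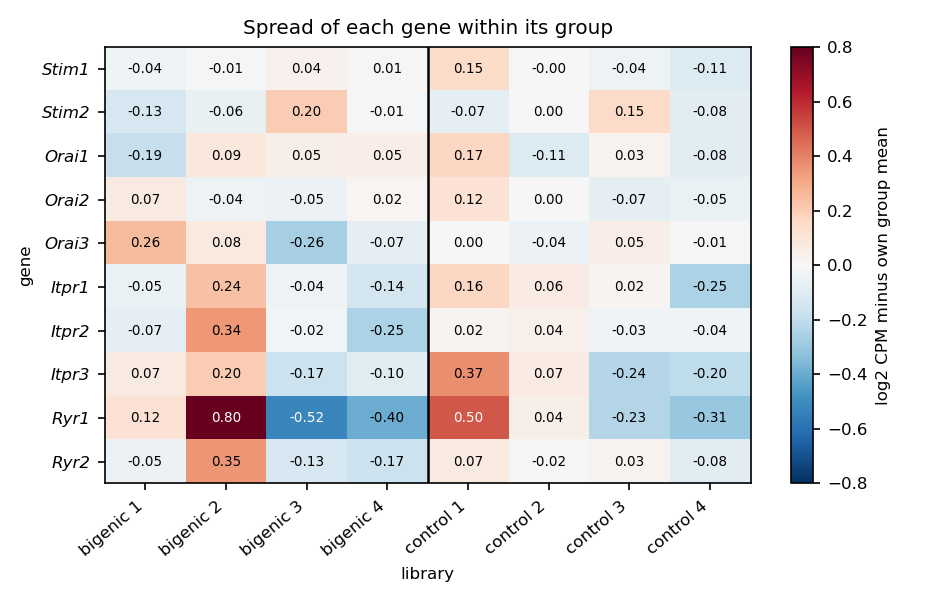
Log2 CPM of each gene in each library minus the mean of its own group (4 bigenic libraries left of the line, 4 control libraries right). The column of bigenic 2 is positive for all 5 IP3 and ryanodine receptor genes, up to 0.80 for Ryr1, and near 0 for Stim1.

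Levels of different genes were compared in FPKM, which is per length. Itpr1 averaged 615 ± 71.3 FPKM in bigenic and 610.3 ± 67.5 FPKM in control libraries (SD, n = 4 each), and only 34 genes of the table had a higher mean. In bigenic libraries Stim1 (32.3 FPKM), Orai2 (29.5), Stim2 (21.0), Ryr2 (19.2) and Orai3 (11.4) followed, then Orai1 (3.80), Itpr2 (3.47), Itpr3 (3.09) and Ryr1 (0.815). Neighbours whose ranges overlapped were Stim2 and Ryr2, Orai1 and Itpr2, and Itpr2 and Itpr3. In control libraries the order was Itpr1, Orai2 (23.3 FPKM), Stim1 (20.7), Orai3 (19.0), Stim2 (18.5), Ryr2 (17.4), Orai1 (4.76), Itpr2 (2.91), Itpr3 (1.93) and Ryr1 (1.19). There the ranges overlapped between Orai2 and Stim1, Orai3 and Stim2, Stim2 and Ryr2, and Itpr3 and Ryr1. In FPKM, Stim1 thus stood above Orai2 in bigenic libraries with no overlap, and below it with overlap in control libraries. That order depends on the lengths behind the FPKM, 3604 bases for Stim1 and 3849 for Orai2. Annotated exons cover 10371 and 6077 bases. In CPM, which is not per length, the ranges in bigenic libraries overlapped, at 117 to 123 for Stim1 and 113 to 123 for Orai2.

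The make-up of the Orai family differed between the groups while its summed FPKM overlapped. Orai2 made up 64.8%, 64.2%, 68.1% and 67.0% of the summed Orai FPKM in bigenic libraries, against 50.9%, 50.6%, 47.4% and 49.1% in control libraries. Orai3 made up 25.4 ± 2.57% in bigenic and 40.4 ± 1.66% in control libraries (SD, n = 4 each), and Orai1 8.56 ± 1.09% and 10.1 ± 0.56%. None of the 3 shares overlapped between the groups, but the Orai1 share was close, at 9.39% in bigenic 3 and 9.49% in control 2. The shares are parts of the same sum, so they do not vary independently. The ratio of Orai2 to Orai3 was 2.63 ± 0.34 in bigenic and 1.23 ± 0.09 in control libraries. The summed Orai FPKM was 44.7 ± 3.07 in bigenic and 47.1 ± 1.71 in control libraries, with overlap. FPKM is per length and carries no TMM factor. In TMM-scaled CPM Orai2 averaged 117 in bigenic and 87.2 in control libraries. Orai3 averaged 23.4 and 36.9 CPM, and Orai1 7.34 and 8.65 CPM. Summed in CPM, the mean was thus higher in bigenic libraries, where the mean FPKM sum was lower. These shares and ratios are descriptions, with no test of their own.

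Stim1 made up 60.7 ± 1.93% of the summed STIM FPKM in bigenic and 52.7 ± 2.93% in control libraries, with no overlap. In CPM its share was 53.1% in bigenic and 45.0% in control libraries, also with no overlap, so which sensor led in controls depends on the unit. The summed STIM FPKM was 53.3 ± 2.09 in bigenic and 39.2 ± 1.39 in control libraries, also with no overlap. Among the IP3 receptors Itpr1 made up 98.9% in bigenic and 99.2% in control libraries, so the calls of Itpr2 and Itpr3 hardly moved the family sum (622 ± 72.2 FPKM and 615 ± 67.9 FPKM). Ryr1 made up 3.94 ± 1.01% of the summed Ryr1 and Ryr2 FPKM in bigenic and 6.33 ± 1.37% in control libraries. These shares did not overlap, but only just, with bigenic 2 at 5.20% and control 3 at 5.24%. Ryr3, a ryanodine receptor gene outside the 10, stood at 30.0 to 40.8 CPM in bigenic libraries and 31.1 to 35.6 CPM in controls and was not called (log2 fold change 0.05, adjusted p = 0.721). It averaged 2.19 FPKM in bigenic and 2.25 FPKM in control libraries, above Ryr1, and is left out of the shares.

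**Figure D4:**
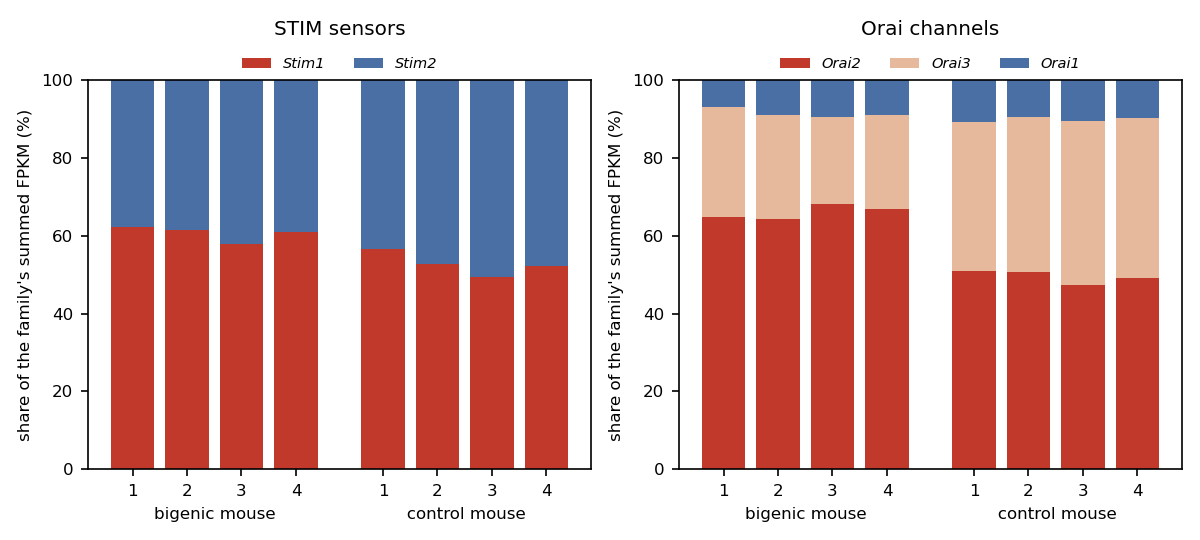
Share of the summed FPKM of each family taken by each gene, for the STIM sensors (left) and the Orai channels (right), in bigenic libraries 1 to 4 and then control libraries 1 to 4. Orai2 takes between 64.2% and 68.1% of the Orai sum in bigenic libraries and between 47.4% and 50.9% in control libraries.

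Genes that act with the sensors, channels and receptors were read from the same fit, from 5 lists that hold 86 genes, of which 82 were tested. Of the 82, 10 were higher and 13 lower, which is 28.0%, below the 44.3% of all genes tested. The median log2 fold change of each list lay between -0.08 and 0.11. The count of each list is read against the 21.4% of all genes tested that were higher and the 22.9% that were lower, and no list was tested as a set.

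Among 17 tested partners of store-operated entry, 4 were higher and 0 lower. Tmem178, a reticulum protein that binds Stim1, had a log2 fold change of 0.42 (adjusted p = 0.00139), and Sppl3, a protease that regulates the pairing of Stim1 with Orai1, 0.34 (adjusted p = 0.00592). Tmem110, which encodes the STIM partner STIMATE, had 0.27 (adjusted p = 0.0256), and Jph1, which tethers the reticulum to the plasma membrane, 0.23 (adjusted p = 0.0297). All 4 had bigenic libraries above all controls, Tmem110 only just, with bigenic 3 at 28.10 CPM and control 1 at 28.04 CPM. Tmem110 lost its call under 13 and Jph1 under 12 of 18 alternatives. Sppl3 lost its call under 2, the fit with the Ttr covariate and the one without control libraries 2 and 3, with adjusted p up to 0.0919.

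Among 16 tested genes of IP3 production and breakdown, 3 were higher and 0 lower. Plce1, a phospholipase C that makes IP3, had a log2 fold change of 0.38 (adjusted p = 0.00311), and Gna11, a G protein subunit that activates phospholipase C, 0.30 (adjusted p = 0.00926). Gna11 lost its call under 2 of 18 alternatives, the FPKM fit without a filter and the fit without control libraries 2 and 3, with adjusted p up to 0.101. Inpp5a, which removes a phosphate from IP3, had 0.20 (adjusted p = 0.0452) and lost its call under 15 of 18 alternatives.

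Among 20 partners of IP3 receptors, 2 were higher and 3 lower. Homer2, a scaffold that binds IP3 receptors, stood at 26.8, 29.2, 26.3 and 26.7 CPM in bigenic libraries, against 15.3, 16.9, 14.5 and 17.0 CPM in control libraries. Its log2 fold change was 0.77 ± 0.09 (SE; 95% interval 0.58 to 0.97; adjusted p = 7.88e-05), and no bigenic library reached down to a control. Bcl2 and Bcl2l1, related survival proteins that both bind IP3 receptors, had opposite signs: Bcl2 had a log2 fold change of -0.75 (adjusted p = 0.000387) and Bcl2l1 of 0.48 (adjusted p = 0.000702). Mrvi1, whose product inhibits IP3 receptors in smooth muscle, was scarce, at 0.571 to 0.974 CPM in bigenic libraries and 1.88 to 2.03 CPM in controls (log2 fold change -1.49, adjusted p = 0.000332). Erp44, a lumen protein that inhibits Itpr1, had a log2 fold change of -0.35 (adjusted p = 0.0129). The 12 endothelial and mural cell markers, summed, were 0.854 times as high in bigenic as in control libraries with 3 called lower and 1 higher, and their part in the Mrvi1 value was not tested.

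Among 11 tested partners of ryanodine receptors, 1 was higher and 2 lower. Cacna1c, the pore of the L-type calcium channel, had a log2 fold change of 0.56 (adjusted p = 0.000559), and Fkbp1b, which binds and steadies Ryr2, one of -0.72 (adjusted p = 0.00292). Sri, which encodes the calcium-binding protein sorcin, had -0.28 (adjusted p = 0.0426) and lost its call under 8 of 18 alternatives.

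Among 18 reticulum pumps and luminal buffers, 0 were higher and 8 lower. Calr, the main calcium-binding protein of the reticulum lumen, stood at 276, 312, 346 and 301 CPM in bigenic libraries, against 473, 506, 587 and 467 CPM in control libraries. All bigenic libraries lay below all controls, with a log2 fold change of -0.72 ± 0.09 (SE; 95% interval -0.92 to -0.51; adjusted p = 0.000163). Rcn1, another luminal calcium-binding protein, had a log2 fold change of -1.21 (adjusted p = 9.23e-05), and Tmco1, a leak channel that opens when the reticulum is overfilled, -0.46 (adjusted p = 0.000760). Sln, an inhibitor of the reticulum calcium pump, had -1.87 (adjusted p = 0.000665) at levels of 0.359 to 0.676 CPM in bigenic libraries and 0.970 to 2.24 CPM in controls. The other 4 lower genes were Hspa5, Hsp90b1, Pdia3 and Pln, the first 3 of them folding proteins of the lumen. For Pdia3 and Pln the groups overlapped, and Pln was scarce, at 0.514 to 1.26 CPM in bigenic libraries and 1.10 to 1.52 CPM in controls. The pump gene Atp2a2, which refills the store, stood at 1083 to 1309.8 CPM in bigenic libraries and 1079.9 to 1257 CPM in controls and was not called.

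**Figure D5:**
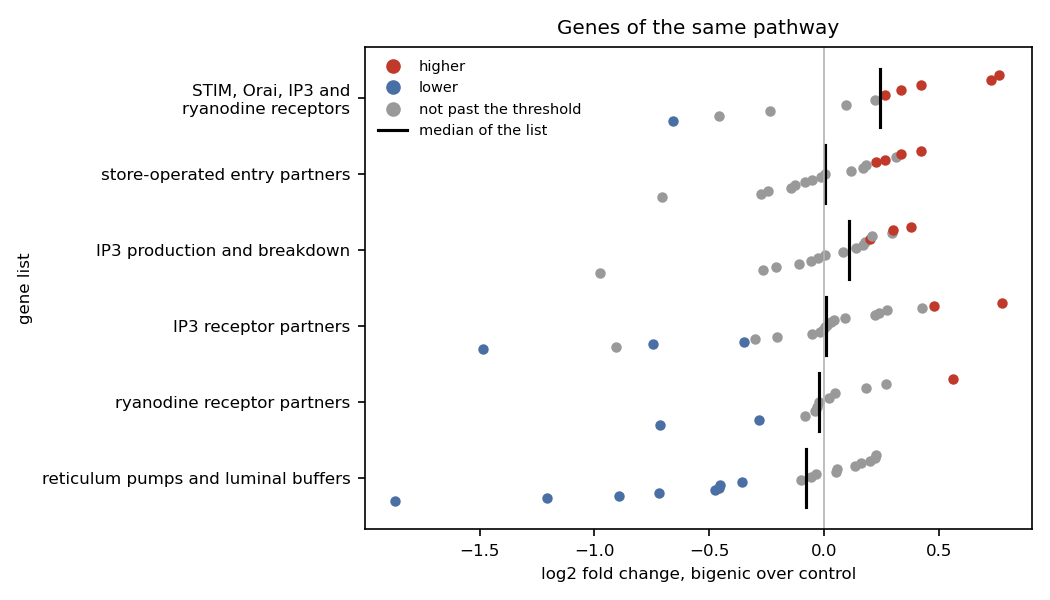
Log2 fold change, bigenic over control, of the 10 sensor, channel and receptor genes and of the tested genes of each partner list. Each point is a gene, coloured where it passed an adjusted p of 0.05, and the black bar is the list's median; the list of reticulum pumps and luminal buffers has 8 lower and 0 higher genes.

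The genes whose pattern over the 8 libraries was nearest to that of Stim1 were Itpk1, Ctdsp2, Wnt3, Hepacam and Pou6f1. Nearness was the root mean square difference of log2 CPM centred on each gene's mean, which was 0.040 for Itpk1, 0.041 for Ctdsp2, 0.042 for Wnt3, 0.043 for Hepacam and 0.048 for Pou6f1. Itpk1, a kinase that acts on inositol phosphates, stood at 144, 148, 163 and 148 CPM in bigenic libraries, against 102, 93.5, 85.5 and 84.1 CPM in control libraries. As for Stim1, control 1 was the highest of its group and no bigenic library overlapped a control, a likeness that follows from how Itpk1 was picked. Hepacam, an adhesion protein of astrocytes, stood at 85.1 to 92.6 CPM in bigenic libraries and 50.0 to 57.7 CPM in controls. Among the other 9 genes the nearest to Stim1 was Orai2 at 0.163, with 578 genes nearer, and then Itpr3 at 0.166, with 618 genes nearer.

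Exons of some of these genes overlap exons of genes on the opposite strand in GENCODE M21, and whether counting used strand is not given, so reads may be shared. The opposite genes are Gm2479 over 7 bases of Orai1, Gm44101 over 181 and Gm44040 over 108 bases of Itpr1, Itpr3os over 233 bases of Itpr3, and Gm26604 over 864 and Gm44408 over 50 bases of Ryr1. Stim1, Stim2, Orai2, Orai3, Itpr2 and Ryr2 have no such overlap. Among the partners named above, Sppl3, Jph1, Inpp5a, Homer2, Mrvi1, Bcl2, Hsp90b1, Pdia3, Pln, Atp2a2 and Ryr3 have one, and so has Aldh1l1. Itpk1, Ctdsp2, Hsp90b1 and Aldh1l1 also share exon bases with a gene on their own strand, as Itpr3 does with Mir7677 over 1 base.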

How the data were processed

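The authors deposited 1 table of read counts and 1 table of FPKM per gene for the 8 libraries. Per the submitters' processing notes, STAR, HTSeq and the mm10 build were used; versions and the strand setting of counting are not given in the sources used here. The labels disagree on library preparation: the series design names mirVana extraction, Nugen Ovation and a NextSeq, the sample protocols a Qiagen column kit, stranded TruSeq with ribosomal RNA removal and a HiSeq4000. The deposited counts are raw whole numbers, and the deposited FPKM values divide them by a gene length and the library total.

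Counts were tested in R 4.3.3 with edgeR 4.0.16 (filterByExpr, TMM, robust quasi-likelihood F test, 4 bigenic against 4 control libraries, no covariates), with Benjamini-Hochberg adjustment over 15186 genes and a threshold of 0.05. The fit was tested on simulated data in which far fewer genes were changed than were called here. That test therefore does not bear on how the scaling behaves with so many changed genes. CPM was computed on TMM-scaled library sizes, with a prior count of 2 for log2 CPM. FPKM served for levels between genes. Alternatives used DESeq2 1.42.0, limma 3.58.1 on log2(FPKM + 1) or log2(FPKM + 0.1), other scalings and filters, left-out libraries, a replicate block and a Ttr covariate. Positions are from GENCODE M21 (GRCm38), promoters from RefSeq.

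The 10 genes and all lists were chosen with earlier results of these data known. Named beside the 10 are up to 4 called genes per pathway list with the smallest p, the 5 genes nearest to Stim1 (predicted genes and clones passed over), Aldh1l1 and Atp2b2; others named in the text were chosen after their values were seen. Markers were listed for Purkinje, granule, interneuron, astrocyte, oligodendrocyte, microglial, endothelial and mural, choroid plexus, leptomeningeal, blood and skeletal muscle cells. A few genes of these lists are not reported here by name.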

Additional observations from a re-analysis of the deposited data

Results flagged for a closer look

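In 4 of the 66 groups of 4 libraries looked at, 1 library stood apart from the other 3 by more of the group's range than Dixon's critical value at 95% allows, which chance gives in about 1 of 20 groups. Orai1 in bigenic 1 was at 6.42 CPM, with the other bigenic libraries at 7.57 to 7.76 CPM. Homer2 in bigenic 2 was at 29.2 CPM, with the others at 26.3 to 26.8 CPM. Mrvi1 in bigenic 2 was at 0.974 CPM, with the others at 0.571 to 0.628 CPM. Pou6f1 in control 1 was at 54.0 CPM, with the other control libraries at 46.7 to 47.9 CPM.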

How the results depend on the processing

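The log2 fold changes of the 10 genes, of the called partner genes named by rule and of the 5 genes nearest to Stim1 kept their sign under all 18 alternatives. Genes called numbered 3249 higher and 3485 lower with edgeR and TMM, 1270 and 1665 with Ttr as a covariate, and 1619 and 1775 without control libraries 2 and 3, where fewer libraries were fitted. Of the 10 genes, 5 were higher with TMM scaling and 3 with library size alone, with upper-quartile factors, in the 3 limma fits on FPKM, with the Ttr covariate and without control libraries 2 and 3; leaving out 1 library gave 3 to 5. The genes lost were Stim2 and Itpr2 throughout the settings that gave 3. Lower genes numbered 1 with TMM and 2 in the FPKM fits and with library size alone, where Orai1 joined Orai3; leaving out 1 library gave 1 to 2. Among the partner genes, 10 were higher and 13 lower, against 6 and 8 with the Ttr covariate, 5 and 8 without control libraries 2 and 3, 6 and 16 in the FPKM fit without a filter, 7 and 19 with library size alone and with log2(FPKM + 0.1), and 15 and 16 with the replicate block. In CPM the Orai2 share differed by 13.6 points and the Orai3 share by -12.0 points, against 16.6 and -15.0 points in FPKM, which is per length. The cause of the other shifts was not tested. Library size alone moved the median log2 fold change of all genes to -0.09.

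The mouse numbers were not taken to pair the libraries: same-numbered libraries correlated at 0.33, 0.02, 0.17 and 0.06 in their deviations from the group means, not all over 0.1. Bigenic 1, 3 and 4 correlated best with the control of their own number and bigenic 2 with control 1, which is a hint from the data and not from the design. With the replicate block 3648 genes were higher and 3795 lower, and of the 10 genes 5 were higher and 2 lower, Ryr1 being added with a log2 fold change of -0.51.

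With 4 animals per group, the changes of Orai1 and Ryr2 did not pass the threshold, with 95% intervals of -0.49 to 0.02 and -0.01 to 0.46. For Orai1 all bigenic libraries still lay below all controls, whereas for Ryr2 the groups overlapped. Ryr1 rests on 279 to 907 reads per library.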

Other observations

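Some genes known to act with Itpr1 in Purkinje cells, picked here after their values were seen, were not called. Plcb4, a phospholipase of these neurons, had a log2 fold change of -0.21 (95% interval -0.47 to 0.05), and Car8, which lowers the affinity of Itpr1 for IP3, 0.04 (-0.12 to 0.21). Homer3, a scaffold of Purkinje cell spines, had 0.24 (0.03 to 0.45) with an adjusted p of 0.0566, and Itpka, a kinase that acts on IP3, -0.06 (-0.25 to 0.14).

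Of the remaining marker lists, the 9 interneuron markers had 2 called higher and 0 lower, the 10 oligodendrocyte markers 4 and 1, the 11 granule cell markers 1 and 2, and the 8 leptomeningeal markers 0 and 4. Of 7 blood markers 6 were listed at 0 in all libraries, and the seventh, Alas2, was lower. Of the 7 skeletal muscle markers 3 were tested and 0 called, and of 11 tested choroid plexus markers 10 were called lower. The mouse gene Atp2b2, which encodes a plasma membrane calcium pump, was not called (log2 fold change 0.25, adjusted p = 0.312). Its highest CPM was 888, in bigenic 2, while bigenic 1, 3 and 4 had 578, 480 and 469. Controls spanned 443 to 632 CPM. Whether reads of the CalExflox construct are counted under Atp2b2 was not tested. These values therefore do not show whether the pump of the construct was expressed.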
